A study of Mus musculus with 4 samples.

Results

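The genes described here carry the insulin signal from its receptor to glucose uptake: Insr, Irs1, Irs2, Grb2, Pik3r1, Pik3ca, Pik3cd, Akt1, Akt2 and Slc2a4. All 10 were measured, of 8251 genes named on the array, by 13 of its 12422 probe sets that are not controls. A probe set is a group of short probes that together give 1 signal. It was assigned here through the platform annotation, and only probe sets annotated with a single gene symbol were assigned to a gene. Pik3ca, Pik3cd and Slc2a4 had 2 such probe sets each and the other 7 genes had 1. The genes were chosen by name for their place in the pathway, with the KO and WT signals of these same arrays already seen, so the contrast of KO with WT is described for them and not tested.

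One group of muscles came from Crhr2-/- (KO) mice, which lack corticotropin-releasing factor receptor 2, the receptor for the urocortin peptides. The other came from their Crhr2+/+ (WT) littermates. All mice were untreated males of the background C57BL/6x129, 6.5 months old, fed chow freely, and each RNA came from gastrocnemius with soleus. The 4 mice of a genotype gave 2 pools, each mixing 2 animals, and 1 Affymetrix U74Av2 array read each pool, so every value below is a pool and n = 2 per genotype. Groups and replicate numbers are those of the sample titles, because the labels hold the genotype in the tissue field and the tissue in the genotype field. Spread between pools is not spread between single mice. The sources used here do not say how the Crhr2 allele was made.

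Insulin binding activates the tyrosine kinase of its receptor, which phosphorylates the insulin receptor substrates. These recruit phosphoinositide 3-kinase (PI3-kinase), an enzyme made of a regulatory and a catalytic subunit, whose lipid product leads to activation of the AKT kinases. In skeletal muscle, the main site of insulin-stimulated glucose disposal, AKT signalling moves the transporter GLUT4, encoded by Slc2a4, from inner vesicles to the cell surface. The adaptor Grb2 links the receptor and its substrates to a separate branch through Ras and the MAP kinases. Much of this pathway is controlled by phosphorylation and protein movement, which transcript levels do not show.

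Of the 4 arrays, the deposited signals had already been brought to 1 scale: medians were 67.6 and 71.2 in KO and 69.2 and 68.4 in WT, in arbitrary units of intensity. Crhr2 itself was lower in both KO pools on its brighter probe set (98395_at), which read 100.4 and 75.1 in KO and 154 and 192 in WT. Its dimmer probe set (162152_r_at) overlapped between genotypes, at 36.7 and 22.7 in KO and 18.8 and 45.3 in WT. The sources used here do not place either probe set on the gene, so this checks the labels only in part. All 12 skeletal muscle markers were measured, 11 of them above the median probe set, and their summed signal was 128180 and 140937 in KO and 131619 and 131572 in WT. The actin controls of the array, which compare the 3' with the 5' end of the transcript and so reflect RNA quality, had ratios of 0.729 and 0.866 in KO and 0.624 and 0.686 in WT; for Gapdh they were 1.04 and 0.988 in KO and 0.889 and 0.914 in WT. Both ratios were higher in both KO pools, and their part in the results below was not tested.

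At the level of the whole pathway, the 13 probe sets lay low in KO more often than high, with 10 differences below 0 and 3 above. Both KO pools stood on the same side of both WT pools for 7 of the 13 probe sets, 6 lower and 1 higher in KO. Over all 12422 probe sets 34.6% did so, 17.6% lower and 17.0% higher in KO. The 7 belong to 5 genes: Pik3r1, Pik3cd and Pik3ca of PI3-kinase, the kinase Akt2 and the adaptor Grb2. The median difference of the 13, as KO minus WT of log2(intensity + 14), was -0.24, beside 0.00 over all probe sets. The members were picked with this contrast in view, so nothing is read from these shares. In a linear model across the whole table (limma, Benjamini-Hochberg adjustment) 0 of 12422 probe sets passed an adjusted p of 0.05 (0% called), and the smallest adjusted p was 0.803. An unadjusted p under 0.05 was reached by 674. None of the 13 was among those passing the adjusted threshold.

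**Figure D1:**
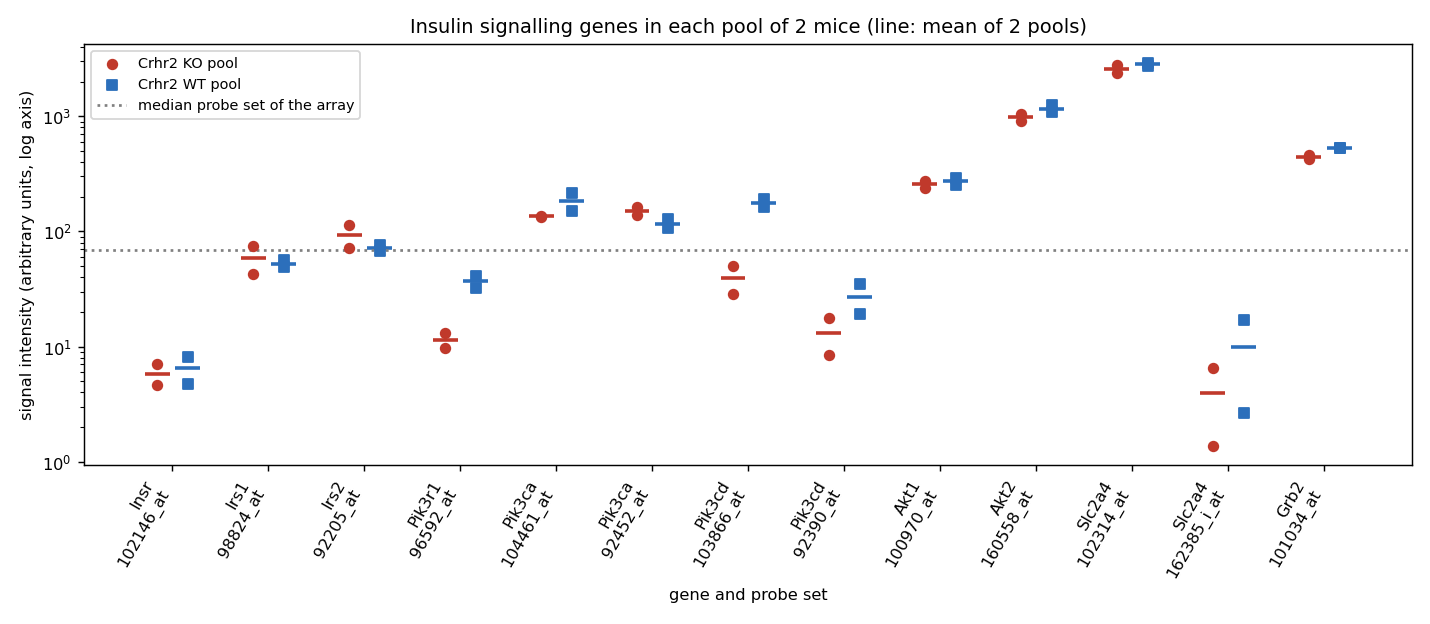
Signal intensity (log axis, arbitrary units) of the 13 probe sets in the 2 KO pools (circles, left of each pair) and the 2 WT pools (squares, right), with lines at the means of 2 pools and a dotted line at the median probe set. Pik3r1 and the brighter probe set of Pik3cd show the widest gaps between genotypes, while the points of Insr, Irs1, Irs2, Akt1 and Slc2a4 overlap.

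The receptor and its substrates did not separate the genotypes. Insr (Entrez gene 16337, probe set 102146_at), the receptor tyrosine kinase itself, read 6.99 and 4.67 in KO and 8.17 and 4.73 in WT. Only 5.55% of all probe sets had a lower mean, so this probe set sat near the bottom of the array's range in both genotypes. Its difference was -0.04 ± 0.20 (standard error, as for all differences below), on a scale where the added 14 exceeds the signal.

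Irs1 (Entrez gene 16367, 98824_at), the substrate with the largest known role in muscle insulin action, read 42.3 and 74.1 in KO and 48.8 and 56.2 in WT. The KO pools bracketed the WT pools, and the difference was 0.09 ± 0.37. Irs2 (Entrez gene 384783, 92205_at), the substrate best known from liver and the pancreatic beta cell, read 71.4 and 114.5 in KO and 75.7 and 66.9 in WT. Its mean was 93.0 ± 30.5 in KO and 71.3 ± 6.20 in WT (SD, n = 2), a difference of 0.30 ± 0.32. For both substrates KO pool 2 was the highest of the 4 arrays. The KO pools were also further apart than the WT pools: by 1.75-fold against 1.15-fold for Irs1, and by 1.60-fold against 1.13-fold for Irs2. Without KO replicate 2 the Irs2 difference was 0.00 and the Irs1 difference -0.24, so the higher KO means of both rested on that pool.

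Grb2 (Entrez gene 14784, 101034_at), the adaptor that couples receptor tyrosine kinases to the Ras activator Sos, was lower in both KO pools by a small margin. It read 428 and 456 in KO and 528 and 531 in WT, so KO averaged 83.4% of WT. The difference was -0.26 ± 0.12, and it lay between -0.30 and -0.21 when any 1 array was left out. Its spread within genotypes, at 1.07-fold in KO and 1.01-fold in WT, was narrower than the gap between them. Even so, 39.2% of all probe sets had a larger absolute difference.

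The widest differences among the 13 were in PI3-kinase. Pik3cd (Entrez gene 18707) encodes the delta catalytic subunit, known mainly from leukocytes. Its brighter probe set, 103866_at, read 28.4 and 50.5 in KO and 189 and 162 in WT, so both KO pools were far below both WT pools. KO averaged 22.5% of WT, and the difference was -1.85 ± 0.32, exceeded in absolute size by 18 of the 12422 probe sets. Leaving out 1 array gave -2.16 to -1.55.

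The other Pik3cd probe set, 92390_at, was dim and pointed the same way with less separation. It read 8.41 and 17.7 in KO and 35.3 and 19.1 in WT. Its higher KO pool and its lower WT pool thus nearly met. The difference was -0.60 ± 0.36, and -0.89 to -0.31 when 1 array was left out. It was -0.90 with 3.5 and -0.27 with 56 in place of the added 14.

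Pik3r1 (Entrez gene 18708, 96592_at) encodes the main regulatory subunit, which binds the phosphorylated substrates and holds the catalytic subunit. It read 9.76 and 13.2 in KO and 41.0 and 32.5 in WT, so the KO pools were both below the WT pools, and KO averaged 31.3% of WT. The probe set was dim, with 28.1% of all probe sets lower in mean. The difference of -0.99 ± 0.32 therefore depended on the value added before taking logarithms: it was -1.43 with 3.5 and -0.46 with 56 in place of 14. No second probe set was annotated to this gene alone, and probe sets with several symbols were not searched.

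Pik3ca (Entrez gene 18706), the catalytic subunit with the leading role in insulin signalling, gave opposite answers on its 2 probe sets. The first, 104461_at, read 134 and 137 in KO and 216 and 150.1 in WT, lower in both KO pools (-0.38 ± 0.23). The second, 92452_at, read 163 and 138 in KO and 107 and 127 in WT, higher in both KO pools (0.32 ± 0.22). The genotypes did not overlap on either, so the 2 probe sets disagree in direction. On the first, WT pool 1 stood above the other 3 arrays, and without WT replicate 1 its difference was -0.14. On the second the smallest gap was between 138 in KO and 127 in WT, and leaving out 1 array gave 0.21 to 0.44.

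**Figure D2:**
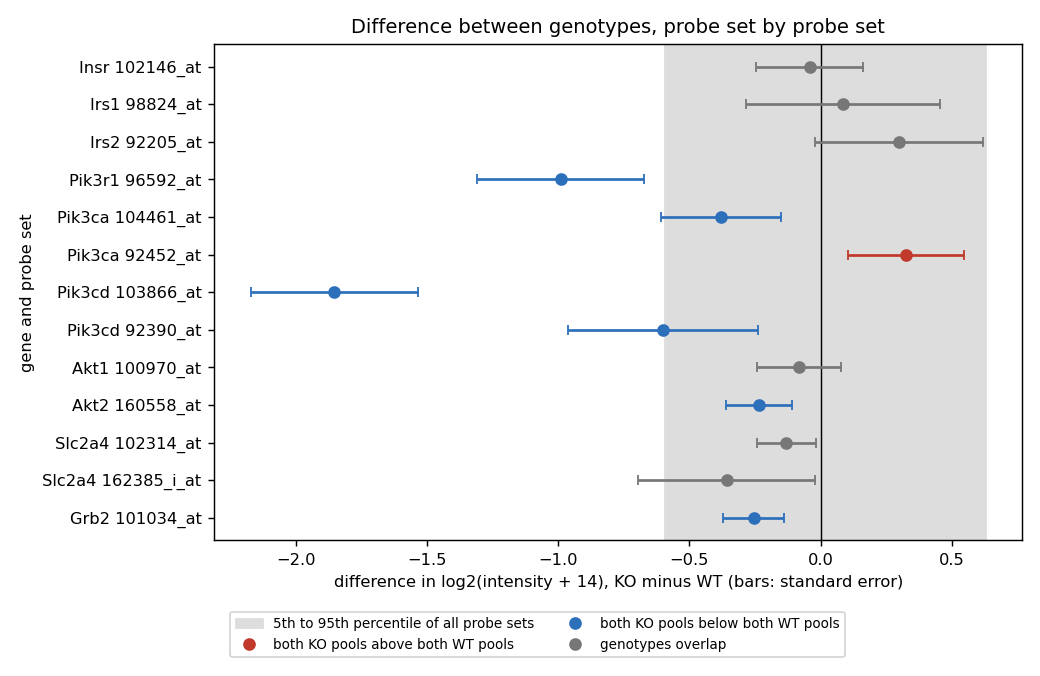
Difference of each probe set in log2(intensity + 14), KO minus WT, with bars of 1 standard error and a grey band from the 5th to the 95th percentile of all probe sets (-0.59 to 0.63). Pik3r1 and both Pik3cd probe sets lie below the band, the second of Pik3cd at its edge, and the Pik3ca probe sets lie on opposite sides of 0.

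The AKT kinases differed little. Akt2 (Entrez gene 11652, 160558_at), the isoform tied to glucose uptake in muscle and fat, read 916 and 1054 in KO and 1247 and 1078 in WT. Both KO pools were below both WT pools, but KO pool 2 and WT pool 2 were only 1054 against 1078. KO averaged 84.8% of WT (-0.24 ± 0.13). Without WT replicate 1 the difference was -0.13 and without KO replicate 1 it was -0.14. Akt1 (Entrez gene 11651, 100970_at), the isoform tied to growth and survival, read 276 and 240 in KO and 292 and 255 in WT. These ranges overlap and the difference was -0.08 ± 0.16.

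Slc2a4 (Entrez gene 20528), which encodes GLUT4, gave a strong signal on 102314_at, where 97.9% of all probe sets had a lower mean. It read 2394 and 2762 in KO and 2746 and 2893 in WT. KO pool 1 was the lowest array and KO pool 2 fell between the WT pools. The KO mean was 2578 ± 261 and the WT mean 2819 ± 104 (SD, n = 2), a difference of -0.13 ± 0.11, and of -0.03 without KO replicate 1. The other Slc2a4 probe set, 162385_i_at, read 1.37 and 6.53 in KO and 17.1 and 2.66 in WT. At this level its pools differed by 4.78-fold within KO and 6.43-fold within WT, and without WT replicate 1 its difference of -0.36 ± 0.34 was 0.09.

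Standard errors from the fit, which borrows the spread of probe sets of like signal, were smaller for bright probe sets. Those of Slc2a4 (102314_at), Akt2, Grb2 and Akt1, each with a mean above at least 78.6% of all probe sets, had standard errors of 0.11, 0.13, 0.12 and 0.16. The dimmer ones of Irs1, Irs2, Pik3r1 and Pik3cd had standard errors of 0.32 to 0.37. Residual spread of the same probe sets on the log2 scale was also smaller for the bright ones. It was 0.05 for Grb2, 0.11 for Slc2a4 (102314_at), 0.13 for Akt1 and 0.14 for Akt2. The dimmer ones had 0.16 (Pik3r1), 0.30 (Irs2), 0.33 (Irs1), and 0.32 and 0.38 (Pik3cd). Outside these groups it was 0.15 for Insr, 0.50 for the dim Slc2a4 probe set, and 0.25 and 0.16 for Pik3ca (104461_at and 92452_at). Insr, the dimmest of the 13, had a standard error of 0.20 and the dim Slc2a4 probe set 0.34. At these levels the added 14 compresses differences. The residual spread of the 13 around their genotype means had a median of 0.16 on the log2 scale, beside 0.23 over all probe sets. Of the 13, 5 had a mean below that of the median probe set (68.7).

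**Figure D3:**
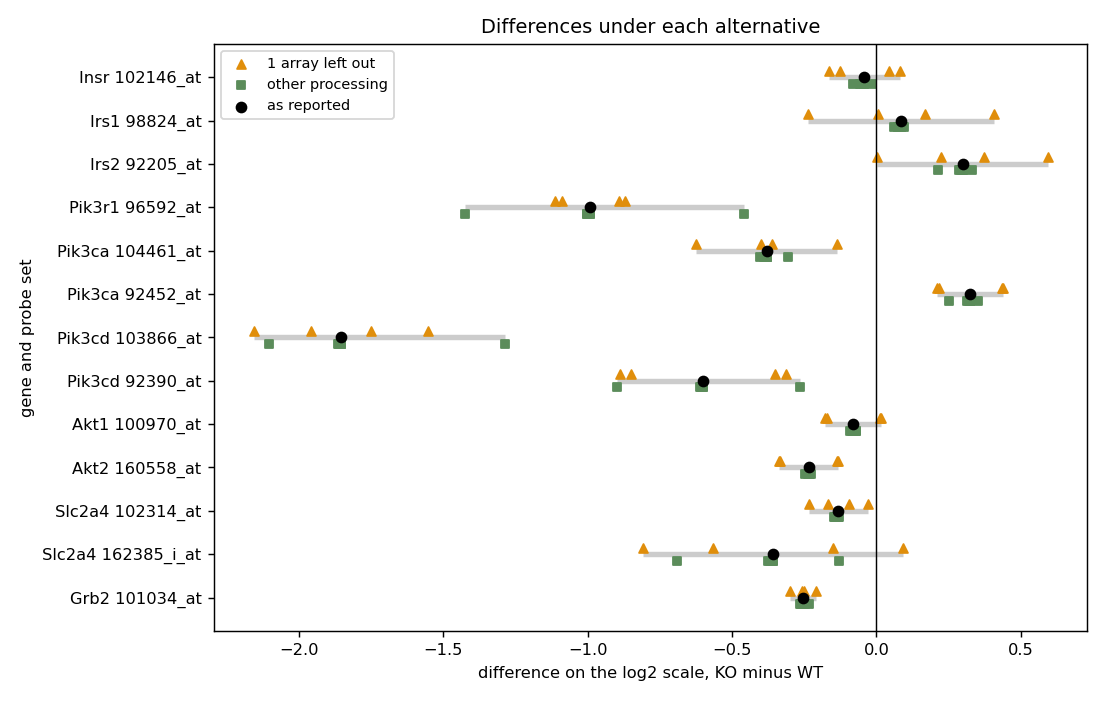
Difference of each probe set on the log2 scale as reported (black), with 1 array left out (triangles) and under the other processing choices (squares). Pik3r1 and Pik3cd move widely with the value added before logarithms, and Insr, Irs1, Akt1 and the dim Slc2a4 probe set cross 0 when 1 array is left out.

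The rest of the pathway was read from 6 lists of 121 further genes, 86 of them measured, with 1 probe set per gene. Of these 86, 45 were higher and 41 lower in KO, with a median difference of 0.02, and 28 (32.6%) did not overlap between genotypes against 34.6% of all probe sets. None of the 86 passed the adjusted threshold in limma in either direction, and 4 had an unadjusted p under 0.05, where 5.43% of all probe sets did. The genes named below are the 2 of each list with the smallest unadjusted p, and Ahsg, chosen after its value was seen. None of them passed, so their levels and differences are given as a description only.

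Among the other PI3-kinase genes 4 of 10 were measured, 3 higher and 1 lower in KO, with a median of 0.10. Pik3c2a, a class II PI3-kinase that works on membrane traffic, read 3.60 and 6.87 in KO and 35.5 and 36.5 in WT (-1.38 ± 0.29, limma adjusted p = 0.803). A still dimmer probe set of the same gene, 92311_s_at, leaned the other way at 5.58 and 7.04 in KO and 4.04 and 4.49 in WT. Pik3r2, a second regulatory subunit gene, read 178 and 125 in KO and 108 and 49.3 in WT (0.90 ± 0.38, limma adjusted p = 0.908), opposite in direction to Pik3r1. With the members included the list of 7 measured genes had a median of -0.38, and of -0.03 when all probe sets of a gene were averaged.

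Phosphatases and inhibitors of the pathway were 11 higher and 4 lower of 15 measured (median 0.20). The size of this lean varied with single arrays. Without KO replicate 2 there were 8 higher and 7 lower (median 0.09), and without WT replicate 2 there were 9 higher and 6 lower (median 0.10). Without KO replicate 1 there were 10 higher and 5 lower (median 0.17), and without WT replicate 1 there were 11 higher and 4 lower (median 0.26). The lipid phosphatase Inppl1, which removes a phosphate from the product of PI3-kinase, read 479 and 552 in KO and 283 and 430 in WT (0.54 ± 0.21, limma adjusted p = 0.882). Its leukocyte relative Inpp5d read 18.9 and 9.40 in KO and 31.7 and 68.4 in WT (-1.14 ± 0.43, limma adjusted p = 0.862), while its other probe set, 102884_at, gave 0.39 ± 0.29. The 2 probe sets of Inpp5d therefore disagreed in direction. Ahsg (-0.64), in this list as an inhibitor of the receptor, is also one of the liver markers described below.

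Among receptors and substrates other than the members, 9 of 11 genes were measured, 4 higher and 5 lower in KO. Igf1r, the receptor for IGF1 and a close relative of Insr, read 91.6 and 106.2 in KO and 84.1 and 58.5 in WT (0.42 ± 0.30), and the docking protein Gab2 read 12.9 and 14.3 in KO and 20.2 and 24.5 in WT. Adaptors and the Ras-MAPK branch, which Grb2 feeds, were 6 higher and 9 lower of 15 measured; with Grb2 included, the 6 higher and 10 lower were 9 higher and 7 lower without WT replicate 2. In this list the kinase Araf read 155 and 151 in KO and 120.1 and 121.5 in WT (0.31 ± 0.20), and the adaptor Nck1 read 29.5 and 5.43 in KO and 33.7 and 35.0 in WT.

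Downstream of AKT, 16 of 25 further genes were measured, 8 higher and 8 lower in KO, with differences from -0.25 to 0.38. With Akt1 and Akt2 included, the 8 higher and 10 lower were 12 higher and 6 lower without WT replicate 2. Foxo3, a transcription factor that AKT holds out of the nucleus, read 247 and 249 in KO and 180 and 196 in WT (0.38 ± 0.16, limma adjusted p = 0.908). Gys1, the muscle glycogen synthase, read 3324 and 3574 in KO and 3856 and 3988 in WT (-0.19 ± 0.10, limma adjusted p = 0.908). The difference of Gys1 was thus about as small as those of Akt2 and Grb2.

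For glucose transport and GLUT4 traffic beside Slc2a4, 27 of 33 genes were measured, 13 higher and 14 lower (median -0.01). This count turned with single arrays: with Slc2a4 included it was 6 higher and 22 lower without KO replicate 1, 18 higher and 10 lower without KO replicate 2, and 9 higher and 19 lower without WT replicate 1. Rab4b, a small GTPase of endosomes, read 92.9 and 120.3 in KO and 58.3 and 71.5 in WT (0.61 ± 0.29). Slc2a2, which encodes the liver and islet transporter GLUT2, read 10.2 and 7.87 in KO and 25.9 and 32.0 in WT (-0.90 ± 0.29, limma adjusted p = 0.830). Liver markers were lower in KO too, for all 6 measured of 7 on average, and their summed signal was 151 and 211 in KO and 389 and 1427 in WT. The part of this in the Slc2a2 values was not tested.

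**Figure D4:**
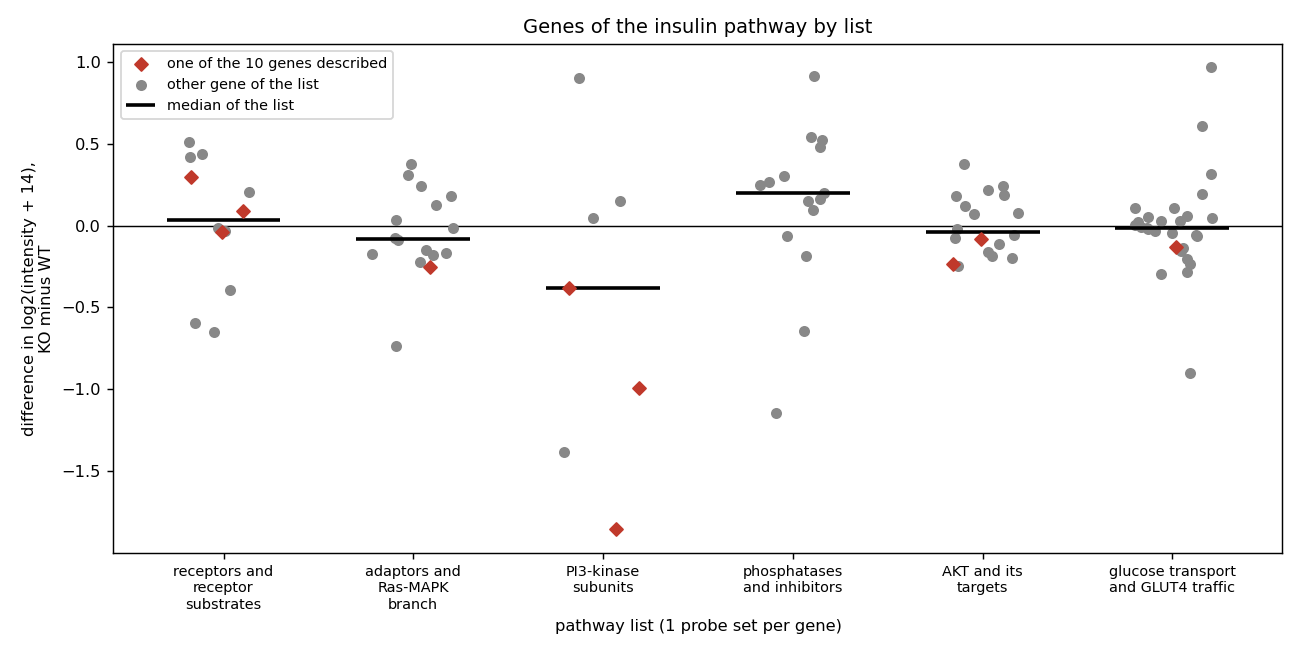
Difference in log2(intensity + 14), KO minus WT, of every measured gene of the 6 pathway lists (1 probe set per gene), with the described genes as diamonds, other genes as circles and a line at each list's median. Medians lie near 0 except for PI3-kinase subunits (-0.38), where Pik3cd, Pik3r1 and Pik3ca make up 3 of the 7 genes, and phosphatases and inhibitors (0.20). The other 4 genes of the PI3-kinase list had a median of 0.10.

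Other cell types in the tissue express several of these genes, and in bulk muscle fewer cells of a type and less RNA per cell cannot be told apart. Of 16 leukocyte markers 14 were measured, 9 higher and 5 lower in KO, none at 0, with Csf1r the brightest. Their summed signal overlapped between genotypes, at 1805 and 2176 in KO and 2192 and 1442 in WT, and their part in the Pik3cd values was not tested. Adipocyte markers, of cells that also express Slc2a4, Insr and Irs1, overlapped too: the 6 measured of 8 summed to 3431 and 3021 in KO and 4263 and 2832 in WT, with none at 0 and Adipoq the brightest. Endothelial (6 of 6 measured, Cdh5 the brightest) and fibroblast markers (6 of 6, Dcn the brightest) summed to 1018 and 1074 in KO and 1039 and 958 in WT, and to 9490 and 8404 in KO and 9882 and 8530 in WT, with none at 0.

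Exocrine pancreas markers separated the genotypes. All 5 measured of 8 were higher in both KO pools, summing to 9857 and 2762 in KO and 1161 and 1102 in WT, with Ctrb1 the brightest at 3467 and 1370 in KO and 589 and 661 in WT. Of the liver markers Alb was the brightest, at 78.7 and 95.2 in KO and 230.0 and 1016 in WT. No marker of either list was at 0 in all arrays. KO pool 1 carried most of the pancreatic signal and WT pool 2 most of the hepatic signal. The part of these signals in the differences of Pik3cd, Pik3r1 and the other genes was not tested. Leaving out KO replicate 1 or WT replicate 2 does not remove them, since KO pool 2 still exceeded both WT pools in the pancreas sum and WT pool 1 exceeded both KO pools in the liver sum.

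**Figure D5:**
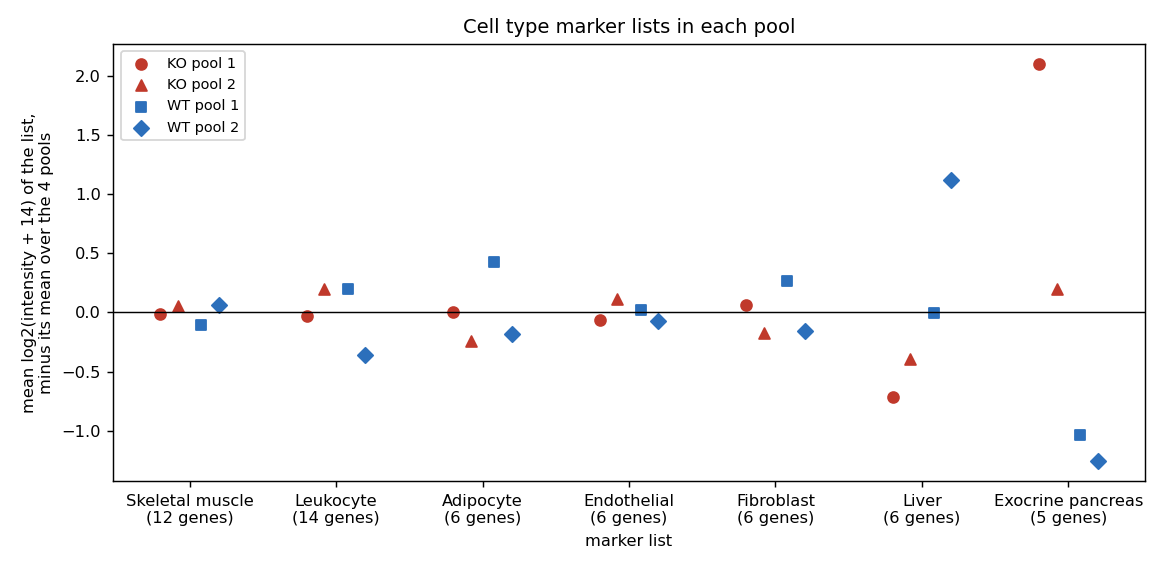
Mean log2(intensity + 14) of each marker list in each pool, minus its mean over the 4 pools, with KO pools in red on the left and WT pools in blue on the right. Muscle, leukocyte, adipocyte, endothelial and fibroblast markers overlap between genotypes, while exocrine pancreas markers are above the WT pools in both KO pools and liver markers are below.

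The genes most like the 2 leading probe sets were found by the distance between log2 values over the 4 arrays, each centred on its own mean, among 5615 other probe sets with 1 symbol and a mean above the median. Nearest to Pik3cd (103866_at) were Slpi, a protease inhibitor, at a distance of 0.61, Junb, an immediate-early transcription factor, at 0.75, and Pmm1, a phosphomannomutase, at 0.79. The Slpi probe set read 47.1 and 47.7 in KO and 167 and 133 in WT. The other 3 probe sets of Slpi and the other 1 of Junb overlapped between genotypes. Nearest to Slc2a4 (102314_at) were the antioxidant enzyme Gpx4 and the Z-disc protein Myoz1, each at 0.03, and the kinase Tesk1, also at 0.03. With 4 arrays these distances are a description.

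Promoter sequences are shown for 3 of the genes without overlap between genotypes, because Crhr2 couples to cyclic AMP, whose transcription factor CREB binds the cyclic AMP response element. RefSeq windows of GRCm38.p6, from 250 bases before to 50 after a transcript start, were held for 8 of the 10 genes, as 16 windows. Both strands were searched for the full element TGACGTCA, its core TGACG (which the full element contains) and the FOXO site TGTTTAC. The full element was in 0 of the 16 windows and in 1.79% of all 32851 windows. The core was in 4 of the 16 (25%), 2 of Akt2 and 1 each of Pik3r1 and Irs1, and in 20.8% of all windows. The FOXO site was in 1, of Akt1, and in 3.65% of all windows. The windows of Pik3r1 and Akt2 with a core follow 5′ to 3′, with the one of Pik3cd farthest upstream, which holds none; capitals mark the core, read on either strand (TGACG or CGTCA).
Pik3r1 (chr13:101692581-101692880, minus strand): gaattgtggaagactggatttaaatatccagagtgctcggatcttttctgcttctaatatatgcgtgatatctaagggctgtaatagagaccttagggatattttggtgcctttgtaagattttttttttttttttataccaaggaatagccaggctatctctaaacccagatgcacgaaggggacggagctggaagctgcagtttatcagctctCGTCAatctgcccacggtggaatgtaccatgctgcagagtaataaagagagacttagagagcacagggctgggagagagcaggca
Akt2 (chr7:27591302-27591601, plus strand): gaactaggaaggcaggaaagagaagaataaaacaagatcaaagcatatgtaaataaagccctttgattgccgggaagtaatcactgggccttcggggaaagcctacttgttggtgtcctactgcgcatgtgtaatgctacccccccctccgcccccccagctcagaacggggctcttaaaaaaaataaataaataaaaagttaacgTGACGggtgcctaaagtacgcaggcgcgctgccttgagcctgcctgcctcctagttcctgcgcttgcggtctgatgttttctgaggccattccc
Akt2 (chr7:27605547-27605846, plus strand): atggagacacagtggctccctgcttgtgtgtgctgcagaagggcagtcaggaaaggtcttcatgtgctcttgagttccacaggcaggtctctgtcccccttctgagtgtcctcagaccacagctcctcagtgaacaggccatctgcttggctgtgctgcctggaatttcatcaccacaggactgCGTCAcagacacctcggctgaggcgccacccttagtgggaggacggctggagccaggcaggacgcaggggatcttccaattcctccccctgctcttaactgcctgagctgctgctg
Pik3cd (chr4:149698659-149698958, minus strand): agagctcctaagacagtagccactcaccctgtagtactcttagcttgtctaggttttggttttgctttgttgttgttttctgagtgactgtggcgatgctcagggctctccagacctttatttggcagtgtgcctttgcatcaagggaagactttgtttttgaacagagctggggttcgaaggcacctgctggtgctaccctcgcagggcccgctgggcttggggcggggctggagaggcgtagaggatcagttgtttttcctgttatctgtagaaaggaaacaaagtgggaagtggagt
A match of these letters is a description of the sequence. The core was present in windows of Pik3r1 and Akt2, whose differences were -0.99 and -0.24, and of Irs1, whose genotypes overlapped.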

How the data were processed

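Total RNA of gastrocnemius and soleus was hybridised after biotin labelling, per the labels' protocols. The authors deposited a linear signal intensity for each probe set on each array; how probes were summarised, whether background was corrected and any detection calls are not stated in the sources used here. In the deposited values the mean without the lowest and highest 2% was 200.2 in each array, so they had been scaled. Array medians lay within 0.06 (log2), below the 0.1 that would have called for recentring. Of 12488 probe sets, 66 controls were left out. Symbols came from the platform annotation (10833 probe sets with 1 symbol, 396 with several, 1193 with none), updated through gene identifiers of GRCm38.p6 (found for 10817). Apart from the RefSeq promoter windows of GRCm38.p6, no coordinates of genes are given because the build behind the annotation is unknown.

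Log2(intensity + 14) was computed here, 14 being 20% of the table's median. Genotype was fitted over all 12422 probe sets with limma 3.58.1 in R 4.3.3 (lmFit, eBayes with trend), two-sided and without a block; the same fit was run on simulated data with known changes. Errors are standard errors of that fit or SDs of 2 pools. The number of arrays limits the precision. For lists, each gene was read from its brightest probe set. Named genes were every member probe set, the 2 non-members of each list with the smallest unadjusted p, the brightest marker of each marker list, the 3 nearest genes to the member with the largest difference and to the brighter Slc2a4 probe set, and Crhr2; Ahsg was added after its value was seen. Members, lists and markers were chosen with earlier results of these data known. Alternatives were 3.5 or 56 as the added value, a filter on level, median centring, quantile normalization, eBayes without trend, a replicate block, and each array left out.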

Additional observations from a re-analysis of the deposited data

How the results depend on the processing

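With 2 pools per genotype, no result for a probe set of the pathway passed in limma under any alternative that kept all 4 arrays. In each of these 0 of the tested probe sets were called. With the filter on level, 350 of 6211 probe sets had an unadjusted p under 0.05. In the others that kept all 4 arrays, 674 to 746 of 12422 did. Replicate numbers are shared between genotypes. Deviations of same-numbered arrays did not go together over the whole table (r = 0.00 across probe sets). That cannot exclude a pairing that acts on some probe sets. With the number as a replicate block 0 probe sets were called (smallest limma adjusted p 0.255) and 740 had an unadjusted p under 0.05. In that fit 7 member probe sets did not overlap and the median difference stayed -0.24. Leaving out 1 array gave 0 calls, a median of -0.30 to -0.13 over the 13 probe sets, and 9 to 11 of them without overlap, 11 without KO replicate 1; with 1 array against 2, 66.5% to 69.5% of all probe sets do not overlap, so that higher count follows from the smaller design. Centring arrays on their medians gave 8 without overlap. With 3.5 or 56 as the added value Pik3r1 was at -1.43 and -0.46, Pik3cd at -2.10 and -1.29 (103866_at) and at -0.90 and -0.27 (92390_at), and the dim Slc2a4 probe set at -0.69 and -0.13. With 1 array left out the sign turned for Insr, Irs1, Akt1 and the dim Slc2a4 probe set. For the 7 probe sets without overlap neither the added value nor leaving out an array can turn the sign, so that says nothing about them. The settings eBayes without trend and replicate block leave every difference as it is. The filter on level kept 8 member probe sets with unchanged differences (median -0.18). Of these, 5 did not overlap, against 35.1% of all probe sets kept. It dropped the rest, among them Pik3r1 and 92390_at of Pik3cd. The PI3-kinase list median was -0.17 without WT replicate 1, -0.62 without WT replicate 2 and -0.03 with all probe sets of a gene averaged. Dim probe sets (Insr, Pik3r1, 92390_at of Pik3cd, 162385_i_at of Slc2a4) lie where signal over background cannot be judged without detection calls.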
